A study of Mus musculus with 128 samples.

Results

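The genes described here are the 4 pyruvate dehydrogenase kinases, Pdk1, Pdk2, Pdk3 and Pdk4, and the catalytic subunits of the 2 pyruvate dehydrogenase phosphatases, Pdp1 and Pdp2. They were taken by symbol, with earlier results of these data known. They are 6 of the 35275 genes in a table of read counts from mouse liver. All 6 passed the filter on low counts that left 16886 genes for testing. Livers came from wild-type male mice of 2 inbred strains, BALB/c and C57BL6/J, at 8 weeks of age. After 1 week on a timed feeding schedule, every mouse was fasted for 21 h, with drinking water withheld from 4 pm on the last day. Food was given at 7 pm as chow with 10% of its calories from fat and 64.5% from carbohydrate, together with 20% fructose, 20% glucose, 20% sucrose or plain water to drink. Mice of every later group, the water groups included, had therefore been offered the same chow, and the sources used here do not give the amounts eaten and drunk. Livers were taken at 0 h, at the end of the fast, and at 3, 6 and 12 h after food was given. Each strain thus had 13 conditions, the fasted one and 3 later times with each of 4 drinks, which gave 26 groups with 63 BALB/c and 65 C57BL6/J libraries. There were 5 libraries in each of 24 groups and 4 in BALB/c mice at 12 h with either fructose or glucose.

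The pyruvate dehydrogenase complex sits in the mitochondrial matrix and turns pyruvate into acetyl-CoA, which commits carbon from glucose to oxidation or to fat synthesis. The kinases phosphorylate the alpha subunit of its pyruvate dehydrogenase component and switch the complex off, and the phosphatases remove that phosphate and switch it on. In liver the complex is held off during fasting, so that pyruvate is spared for glucose production, and Pdk4 is the member best known for induction by fasting, through PPAR-alpha, FoxO1 and glucocorticoids, and for repression by insulin. Pdk2 is the kinase that most tissues carry, Pdk1 is a target of hypoxia-inducible factor, and Pdk3 is known mainly from testis and brain. Pdp1 is activated by calcium and is abundant in muscle, whereas Pdp2 does not respond to calcium and is found in liver and fat. Transcripts were measured here, not kinase or phosphatase activity and not the phosphorylation of the complex.

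The promoters of Pdk1, Pdk2 and Pdk4 are shown because these are the kinases whose transcripts differed with strain or with time. Each run spans the start of the gene, with most of it upstream, is written 5′ to 3′ on the strand of the gene and comes from RefSeq on GRCm38.p6. Capitals mark matches, on either strand, to 4 motifs, namely the E-box CACGTG, the CCAAT box (ATTGG on the opposite strand), the nuclear receptor half-site AGGTCA and the forkhead motif GTAAACA. The runs lie at chr2:71872974-71873273 on the plus strand for Pdk1, chr11:95041322-95041621 on the minus strand for Pdk2 and chr6:5496229-5496528 on the minus strand for Pdk4.
Pdk1: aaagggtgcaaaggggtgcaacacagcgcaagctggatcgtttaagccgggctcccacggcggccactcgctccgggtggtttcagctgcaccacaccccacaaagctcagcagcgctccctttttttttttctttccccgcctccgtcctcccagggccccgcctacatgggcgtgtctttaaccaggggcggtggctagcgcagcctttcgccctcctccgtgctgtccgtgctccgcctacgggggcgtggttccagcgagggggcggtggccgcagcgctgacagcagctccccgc
Pdk2: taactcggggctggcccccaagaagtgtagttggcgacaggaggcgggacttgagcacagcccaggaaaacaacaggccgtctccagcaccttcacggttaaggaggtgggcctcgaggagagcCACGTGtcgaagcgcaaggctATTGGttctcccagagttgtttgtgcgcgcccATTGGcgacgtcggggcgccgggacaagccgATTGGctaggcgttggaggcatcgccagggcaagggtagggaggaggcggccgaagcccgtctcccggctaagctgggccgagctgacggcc
Pdk4: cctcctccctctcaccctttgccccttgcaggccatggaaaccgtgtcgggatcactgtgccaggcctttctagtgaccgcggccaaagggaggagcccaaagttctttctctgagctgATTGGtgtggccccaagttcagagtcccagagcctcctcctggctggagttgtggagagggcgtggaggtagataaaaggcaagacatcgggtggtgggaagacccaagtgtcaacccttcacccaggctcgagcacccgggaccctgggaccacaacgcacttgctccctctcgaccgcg
The Pdk2 run held 1 CACGTG, at -126 from the start, and 3 CCAAT boxes on the opposite strand, at -105, -73 and -42. The Pdk4 run held 1 CCAAT box on the opposite strand, at -131. None of the 4 motifs was found in the Pdk1 run, which is therefore printed without capitals. Of 32851 promoters of the same length, 7.15% held CACGTG, 37.4% CCAAT, 16.3% AGGTCA and 3.65% GTAAACA. The promoters of 5 of the 6 genes were matched by symbol, and AGGTCA and GTAAACA were in none of those 5. A match is a description of these letters, and binding was not measured here.

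In the mm10 assembly Pdk1 (ENSMUSG00000006494) lies at chr2:71873224-71903858 on the plus strand, Pdk2 (ENSMUSG00000038967) at chr11:95026258-95041354 on the minus strand and Pdk3 (ENSMUSG00000035232) at chrX:93764607-93832201 on the minus strand. Pdk4 (ENSMUSG00000019577) lies at chr6:5483351-5496309 on the minus strand, Pdp1 (ENSMUSG00000049225) at chr4:11958184-11966452 on the minus strand and Pdp2 (ENSMUSG00000048371) at chr8:104591468-104596836 on the plus strand. These spans cover the whole gene, and counts were given for genes, not for exons or transcripts.

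Each library had 18541545 to 43118895 counts. The 7 hepatocyte markers summed to 51910 to 116300 CPM, counts scaled to library size, in BALB/c and 47800 to 139400 CPM in C57BL6/J. Nnt, part of which is known to be deleted in C57BL6/J, had a median of 134 CPM in BALB/c against 46.3 CPM in C57BL6/J. Transcripts of 13 skeletal muscle markers were present in part of the libraries, with a summed median of 142 CPM in BALB/c (1.02 to 570) and 32.9 CPM in C57BL6/J (1.40 to 724), and they also moved with time. Over all drinks and both strains their summed medians at 0, 3, 6 and 12 h were 247, 113, 294 and 2.51 CPM. By the 500 genes of smallest p for time on water, the members left out, 4 libraries resembled the mean of another time after feeding more than that of their own, namely BALB/c water 12 h replicate 1 (most like 0 h), C57BL6/J water 0 h replicate 2 (most like 3 h), BALB/c fructose 3 h replicate 4 (most like 6 h) and BALB/c fructose 6 h replicate 4 (most like 3 h). Markers of adrenal gland (to 231 CPM in BALB/c and 599.7 CPM in C57BL6/J), kidney (to 1515 and 2.90 CPM) and exocrine pancreas (to 101 and 1595 CPM) were high in few libraries, while leukocyte and Kupffer cell markers ranged from 61.6 to 240.4 CPM in BALB/c and from 53.3 to 298 CPM in C57BL6/J, and adipocyte markers reached 48.5 and 53.8 CPM. Adrenal sums were over 50 CPM in 4 libraries and kidney sums in 2, all at 6 h. Pancreas sums were over 50 CPM in 2, 5, 4 and 7 libraries at 0, 3, 6 and 12 h. Summed muscle transcripts were tried as a covariate, and the part of the other cells in the results was not tested. The names of 34 libraries end in the suffix a, a mark that the sources used here do not explain, and the other 94 were also analysed alone. Every library was kept. In whole liver, fewer cells of a type and less RNA per cell cannot be told apart, and time since feeding and time of day cannot be told apart either.

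Pdk2 was the most abundant kinase transcript in every library, and Pdk1 came next in most libraries of both strains. Levels were compared between genes on the FPKM scale of the authors, which divides by gene length. Pdk2 had a median of 37.4 FPKM in BALB/c and 27.5 FPKM in C57BL6/J and was the highest of the 4 kinases in 63 of 63 BALB/c and 65 of 65 C57BL6/J libraries. Pdk1 had a median of 6.01 FPKM in BALB/c against 13.1 FPKM in C57BL6/J. Pdk4 had a median of 4.85 FPKM in BALB/c against 2.18 FPKM in C57BL6/J and stood above Pdk1 in 17 of 63 BALB/c libraries but in 1 of 65 C57BL6/J libraries. Pdk3 was close to the limit of these libraries, with a median of 0.193 FPKM in BALB/c and 0.187 FPKM in C57BL6/J and 0 to 85 reads per library. Of the phosphatases, Pdp2 stood above Pdp1 in every library of both strains, at a median of 2.79 FPKM in BALB/c and 2.96 FPKM in C57BL6/J, where Pdp1 had 0.781 FPKM in BALB/c and 0.409 FPKM in C57BL6/J.

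Taken as shares of the summed FPKM of the 4 kinases in fasted liver, Pdk2 made up 80.3% ± 5.27 (SD, n = 5) in BALB/c and 64.7% ± 5.21 in C57BL6/J. Pdk4 made up 11.2% ± 5.39 in BALB/c and 2.73% ± 0.482 in C57BL6/J. The share of Pdk1 lay between 2.19% and 10.4% in the 5 fasted BALB/c livers and between 26.8% and 38.6% in the 5 fasted C57BL6/J livers, with no overlap. The summed kinase level itself was 69.6 ± 15.6 FPKM in BALB/c and 52.0 ± 12.7 FPKM in C57BL6/J at 0 h, ranges that overlapped. At 12 h on water the Pdk4 share was 13.2% ± 7.99 in BALB/c and 6.77% ± 3.75 in C57BL6/J. The shares are descriptions and were not tested.

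**Figure D1:**
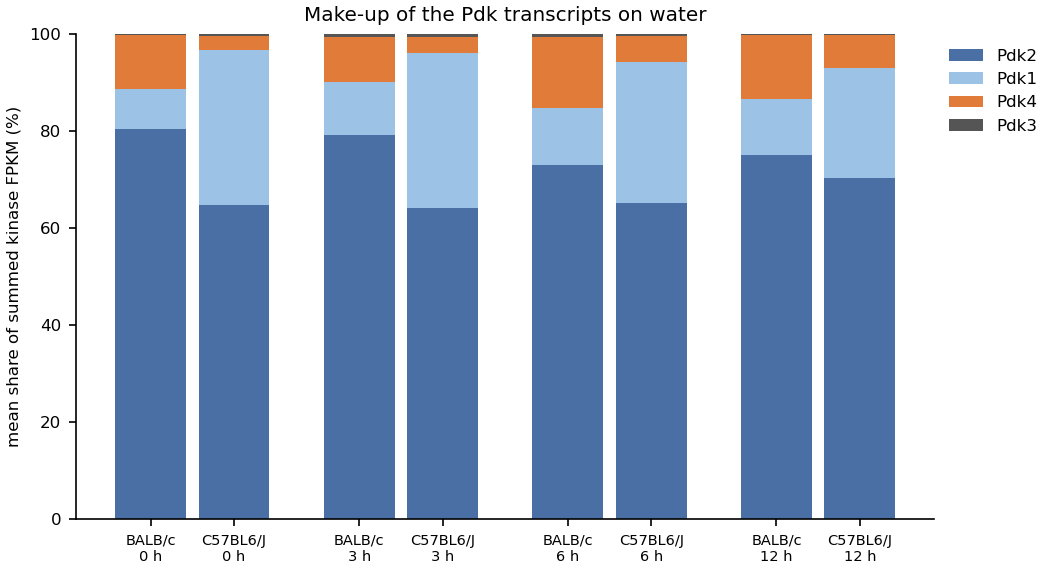
Mean share of the summed kinase FPKM taken by Pdk1, Pdk2, Pdk3 and Pdk4 in mice that drank water, in percent (y axis), at 0, 3, 6 and 12 h after feeding (x axis), BALB/c left of C57BL6/J, 5 libraries a bar. Pdk2 fills most of every bar, and at 0 h the Pdk1 part is smaller in BALB/c (2.19% to 10.4%) than in C57BL6/J (26.8% to 38.6%).

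Levels of 4 of these genes differed between the strains. Averaged over the 13 conditions, BALB/c livers had less Pdk1 and more Pdk4, Pdp1 and Pdk2 transcript than C57BL6/J livers, while Pdk3 and Pdp2 were not called. Of all genes tested, 55.3% were called in that average, so 4 of 6 members called is near the share of all genes, and the sizes are what is reported here. In single conditions 10.8% to 16.3% of genes were called, against 31 of 78 values of the members (6 genes in 13 conditions), 29 of them from Pdk1, Pdk4 and Pdp1. A call is an edgeR adjusted p under 0.05.

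Pdk1 was called lower in BALB/c in 12 of 13 conditions and was lower, without a call, in the other. In fasted liver it had 10.6, 32.7, 34.7, 26.8 and 42.1 CPM in the 5 BALB/c libraries, against 128.8, 73.5, 67.2, 78.0 and 103 CPM in the 5 C57BL6/J libraries. The groups did not overlap, and every BALB/c library lay below every C57BL6/J one. As a log2 fold change of BALB/c over C57BL6/J this was -1.62 ± 0.27 (± SE, edgeR adjusted p = 1.29e-06). At 3 h on water the BALB/c libraries had 22.3, 26.0, 27.3, 21.2 and 26.0 CPM, against 69.8, 58.6, 72.2, 39.5 and 97.8 CPM in C57BL6/J (-1.46 ± 0.27, edgeR adjusted p = 1.47e-05). At 6 h they had 22.2, 25.0, 27.0, 27.1 and 22.8 CPM, against 57.1, 67.8, 60.2, 67.2 and 62.3 CPM (-1.34 ± 0.27, edgeR adjusted p = 7.72e-05). Both times again showed no overlap, and the 6 h groups were the tightest. At 12 h the BALB/c libraries had 20.7, 56.3, 29.6, 28.2 and 31.4 CPM, against 60.6, 103, 34.8, 68.0 and 64.2 CPM in C57BL6/J, where BALB/c replicate 2 reached into the C57BL6/J range (-0.99 ± 0.27, edgeR adjusted p = 0.00464). Over the 13 conditions the mean difference was -1.24 ± 0.08 (edgeR adjusted p = 1.79e-29), and Pdk1 was called lower in 12 conditions, 7 of them without overlap. The exception was fructose at 12 h, where BALB/c had 50.4, 55.3, 41.4 and 25.9 CPM and C57BL6/J 86.9, 45.5, 80.2, 48.4 and 82.4 CPM (-0.67, 95% interval -1.23 to -0.10, edgeR adjusted p = 0.131). With only the libraries under 50 CPM of muscle transcripts, 2 in each strain at 0 h, the difference there was -2.46 and was called, and BALB/c replicate 1, with the lowest Pdk1, was 1 of those libraries.

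**Figure D2:**
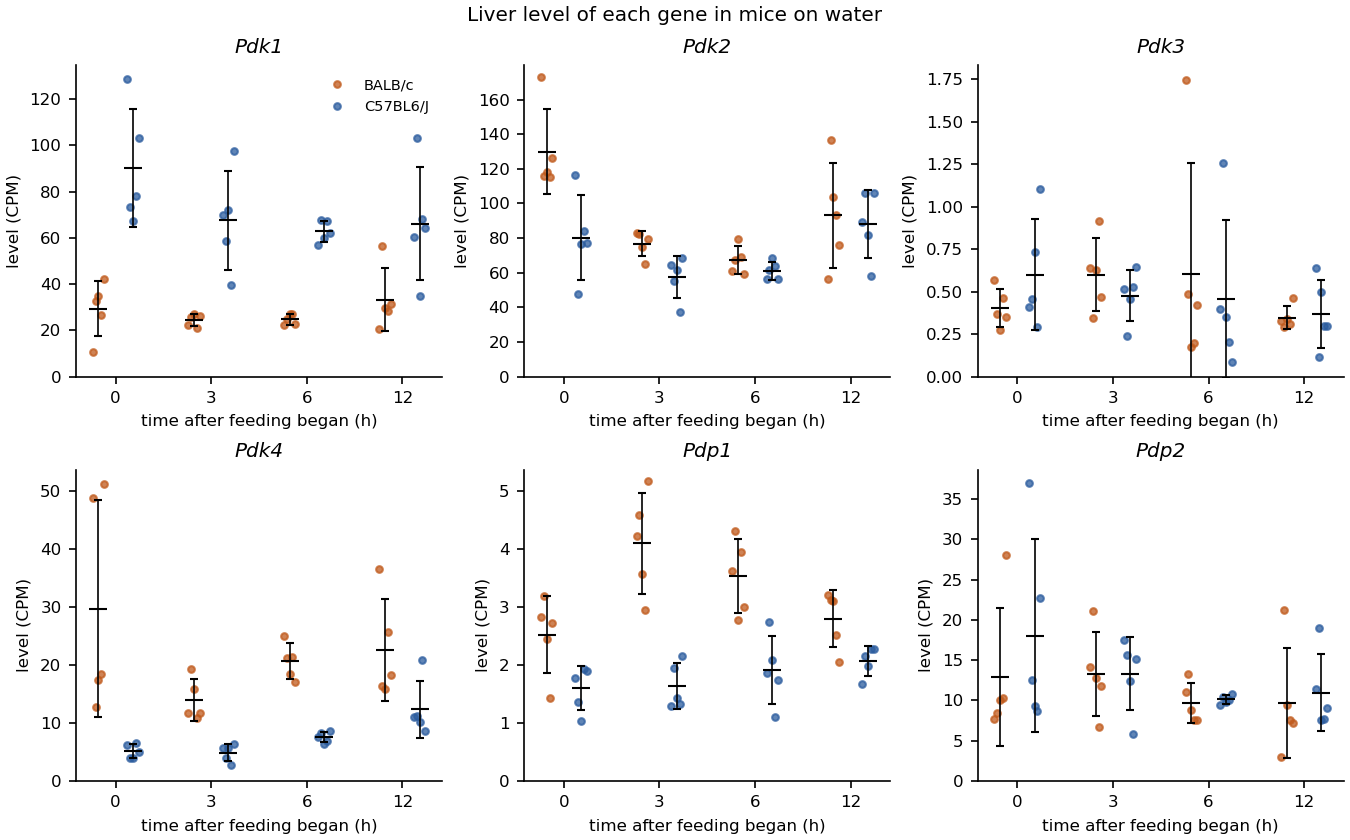
Level of each of the 6 genes in CPM (y axis, 1 panel a gene) against time after feeding in hours (x axis) in mice that drank water, BALB/c in orange left of C57BL6/J in blue, each point a library and bars the mean ± SD. The BALB/c points of Pdk1 lie below those of C57BL6/J at 0, 3 and 6 h, those of Pdk4 lie above, and the lower SD bars of Pdk3 at 6 h end at the axis.

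Pdk4 was higher in BALB/c, most of all in fasted liver. At 0 h it had 48.8, 12.7, 17.4, 18.4 and 51.3 CPM in the BALB/c livers, against 6.27, 3.91, 4.02, 6.48 and 4.95 CPM in C57BL6/J. Every BALB/c library lay above every C57BL6/J library, and 2 BALB/c libraries stood well above the other 3. The difference on the log2 scale was 2.54 ± 0.33 (edgeR adjusted p = 3.42e-10), and it was called under all 17 alternative settings, at 2.17 to 2.76. Markers of skeletal muscle, a tissue that also expresses Pdk4, had a summed median of 211 CPM in these BALB/c libraries and 284 CPM in these C57BL6/J libraries. On water these medians were 195 and 46.6 CPM at 3 h and 182 and 342.5 CPM at 6 h, in the same order. At 3 h on water Pdk4 had 11.7, 19.3, 15.9, 10.9 and 11.7 CPM in the BALB/c livers, against 5.71, 3.86, 5.71, 2.74 and 6.36 CPM in C57BL6/J (1.51 ± 0.32, edgeR adjusted p = 0.000157). At 6 h it had 25.1, 21.2, 18.4, 21.4 and 17.0 CPM, against 7.62, 8.20, 6.39, 6.86 and 8.56 CPM (1.45 ± 0.31, edgeR adjusted p = 0.000252). There was no overlap at either time. At 12 h the groups overlapped, with 36.5, 16.4, 15.9, 25.7 and 18.3 CPM in the BALB/c livers against 11.0, 11.2, 10.2, 20.9 and 8.54 CPM in C57BL6/J. The difference there was 0.87 ± 0.31 (edgeR adjusted p = 0.0429), and this call was lost in 9 of 17 alternatives, at 0.58 without replicate 1 and 0.62 without the 4 libraries that resembled another time.

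With the sugar drinks the strain difference in Pdk4 had the same direction at 3 and 6 h and was not called at 12 h. It was 1.36 ± 0.32, 1.06 ± 0.31 and 1.34 ± 0.31 at 3 h with fructose, glucose and sucrose, all called higher in BALB/c. At 6 h it was 1.05 ± 0.31 with glucose and 1.23 ± 0.31 with sucrose, both called, and 0.60 ± 0.31 with fructose, which was not. At 12 h it was 0.25 ± 0.32 with fructose (95% interval -0.38 to 0.89), 0.53 ± 0.32 with glucose (-0.10 to 1.17) and -0.34 ± 0.30 with sucrose (-0.94 to 0.27). Pdk4 was called higher in BALB/c in 9 of 13 conditions, and the groups did not overlap in 7. The glucose 3 h call was lost in 7 of 17 alternatives, all with the same direction.

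Pdp1, the calcium-activated phosphatase, was higher in BALB/c at 3 and 6 h with every drink. At 3 h on water it had 4.22, 4.60, 3.57, 2.95 and 5.17 CPM in the BALB/c livers, against 1.29, 1.95, 1.43, 1.33 and 2.16 CPM in C57BL6/J. At 6 h it had 3.63, 4.31, 2.78, 3.96 and 3.00 CPM, against 1.87, 2.74, 2.10, 1.11 and 1.75 CPM. Neither pair of groups overlapped, and the log2 fold changes were 1.33 ± 0.26 at 3 h (edgeR adjusted p = 3.9e-05) and 0.88 ± 0.26 at 6 h (edgeR adjusted p = 0.0109). The 6 h difference was no longer called without replicate 4 (0.69). Pdp1 was called higher in BALB/c in 8 conditions, the 4 drinks at 3 h and the 4 drinks at 6 h, and in neither the fasted nor any 12 h condition. At 0 h it had 2.83, 3.19, 2.44, 1.43 and 2.72 CPM in the BALB/c livers, against 1.78, 1.37, 1.04, 1.93 and 1.90 CPM in C57BL6/J (0.66 ± 0.26, edgeR adjusted p = 0.0700), with 1 BALB/c library inside the C57BL6/J range, and at 12 h the intervals of all 4 drinks included 0. The mean over the 13 conditions was 0.82 ± 0.07 (edgeR adjusted p = 2.39e-19). Counts behind these values were low, with 31 to 166 reads a library in BALB/c and 12 to 85 in C57BL6/J. Summed muscle markers at 3 h had a higher median in BALB/c with every drink, on water 195 against 46.6 CPM. At 6 h this held with glucose only, and on water the medians were 182 against 342.5 CPM. With summed muscle transcripts as a covariate no Pdp1 call was lost. With only the libraries under 50 CPM of them, few in BALB/c, the 3 h difference was 1.45 with fructose and 1.00 with glucose.

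Pdk2 differed less. In fasted liver it had 173.0, 115.9, 118.0, 115.5 and 126.4 CPM in the BALB/c livers, against 116.4, 47.6, 76.4, 84.0 and 77.1 CPM in C57BL6/J. The 2 groups overlapped in a single library, C57BL6/J replicate 1, while C57BL6/J replicate 2 was the lowest. The difference was 0.69 ± 0.19 (edgeR adjusted p = 0.00594), and without C57BL6/J replicate 2 it was 0.55 (edgeR adjusted p = 0.0501). The only other call was with fructose at 3 h (0.56 ± 0.19, edgeR adjusted p = 0.0445), which was 0.38 and not called without the 4 libraries that resembled another time. The mean over 13 conditions was 0.31 ± 0.05 (edgeR adjusted p = 3.04e-07), a fold of 1.24. Pdk2 overlaps Gm11513, an antisense gene on the opposite strand. The sources used here do not say whether counting used the strand, so the effect of this overlap on the Pdk2 counts is not known.

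Pdp2, the calcium-insensitive phosphatase, and Pdk3 were called in none of the 13 conditions. In fasted liver Pdp2 had 7.68, 8.37, 10.1, 10.3 and 28.1 CPM in the BALB/c livers, against 37.0, 12.6, 9.25, 8.70 and 22.8 CPM in C57BL6/J, a wide spread with 1 high library in BALB/c and 2 in C57BL6/J (-0.48, 95% interval -1.22 to 0.26). Over the 13 conditions its mean difference was -0.17 with an interval of -0.38 to 0.03 (edgeR adjusted p = 0.151). Pdk3 had 0.566, 0.370, 0.272, 0.462 and 0.351 CPM in fasted BALB/c, against 0.408, 0.456, 0.735, 0.290 and 1.11 CPM in fasted C57BL6/J. Its mean difference was 0.04 with an interval of -0.28 to 0.35 (edgeR adjusted p = 0.878), and at 0 h its interval ran from -1.66 to 0.55, so that smaller differences were not detectable at this depth.

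**Figure D3:**
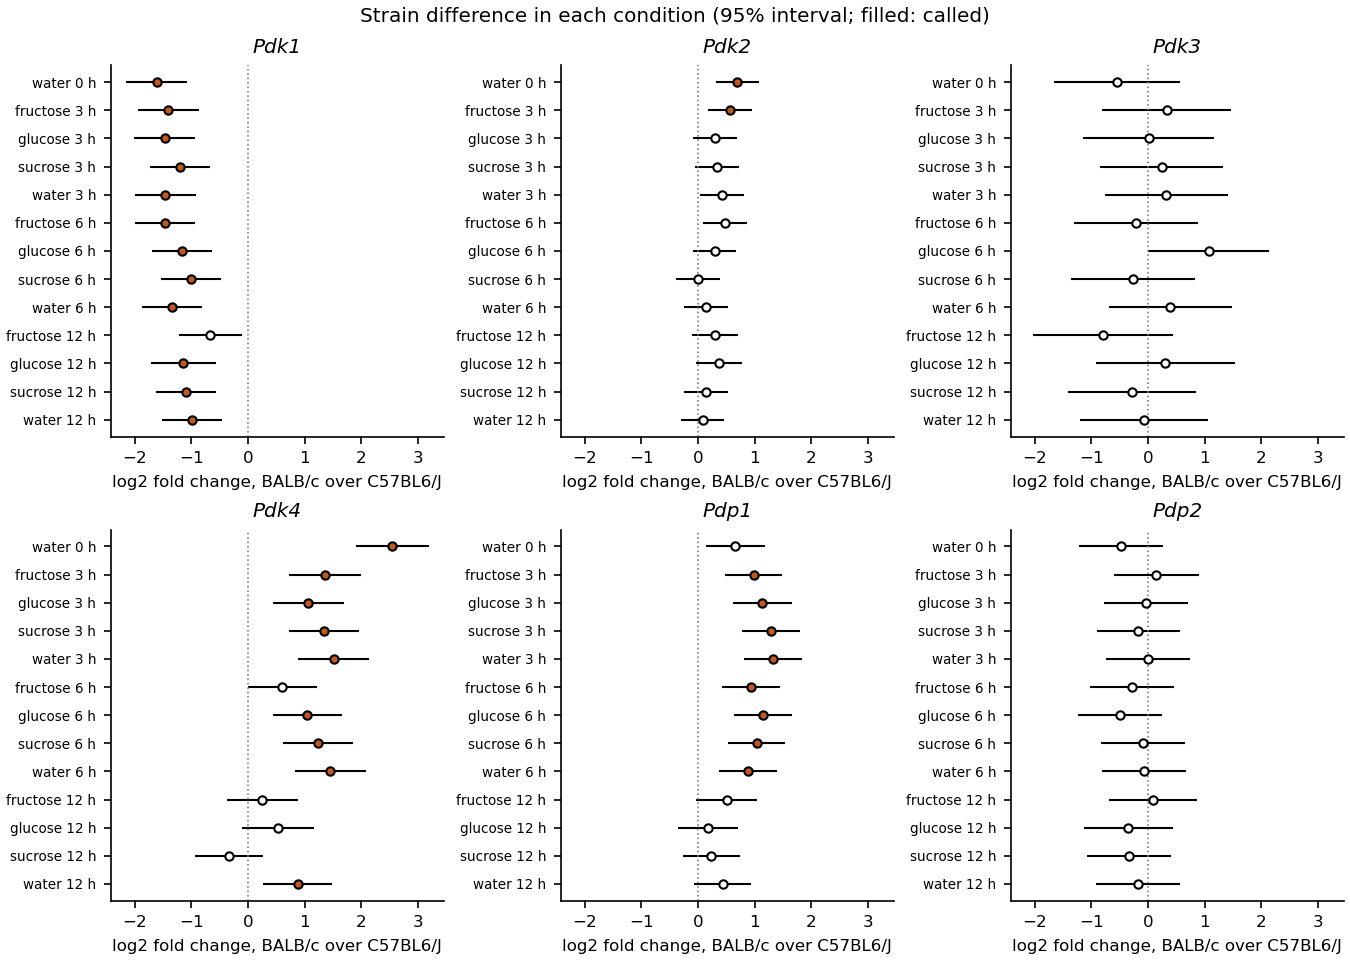
Log2 fold change of BALB/c over C57BL6/J with its 95% interval (x axis) for each of the 6 genes in each of 13 conditions of drink and time (y axis), filled points called at an edgeR adjusted p under 0.05. Pdk1 lies below 0 in all 13 conditions, and Pdk4 reaches 2.54 at 0 h and -0.34 with sucrose at 12 h.

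In mice that drank water, Pdk2 fell within 3 h of feeding, stayed lower at 6 h and was higher again at 12 h. At 3 h, 2 of the 6 members were called, both lower, where 25.4% of all genes were called. At 6 h, 1 of 6 was called, against 28.8% of all genes, and at 12 h none of 6, against 17.6%. These shares are near or under the background, so the values of the single genes carry the description.

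At 3 h Pdk2 had 82.8, 82.1, 74.6, 65.1 and 79.3 CPM in the BALB/c livers, against 173.0, 115.9, 118.0, 115.5 and 126.4 CPM at 0 h. In C57BL6/J it had 64.5, 55.2, 61.8, 37.4 and 68.5 CPM at 3 h, against 116.4, 47.6, 76.4, 84.0 and 77.1 CPM at 0 h. The BALB/c groups did not overlap, whereas the C57BL6/J groups did, through replicate 2 at 0 h. Averaged over both strains Pdk2 changed by -0.62 ± 0.14 on the log2 scale (edgeR adjusted p = 0.000204), and 10 of 10 libraries at 3 h lay below the 0 h mean of their strain. At 6 h Pdk2 had 61.1, 67.5, 79.7, 69.0 and 59.2 CPM in BALB/c and 56.2, 61.3, 68.3, 63.7 and 56.2 CPM in C57BL6/J, and the change from 0 h was -0.67 ± 0.14 (edgeR adjusted p = 4.86e-05, lower in 10 of 10). In BALB/c alone it was -0.76 ± 0.19 at 3 h (edgeR adjusted p = 0.00221, with 18.2% of all genes called) and -0.95 ± 0.20 at 6 h (edgeR adjusted p = 9.5e-05, with 18.9% called). In C57BL6/J alone it was -0.48 ± 0.19 at 3 h (edgeR adjusted p = 0.0947, with 11.1% called) and -0.39 ± 0.19 at 6 h (edgeR adjusted p = 0.179, with 13.7% called). Without C57BL6/J 0 h replicate 2, the library with a profile nearer to 3 h, both C57BL6/J changes were called, at -0.62 and -0.53, as they were without all 4 libraries that resembled another time (-0.65 and -0.56).

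At 12 h on water Pdk2 had 56.1, 137, 104, 93.1 and 76.2 CPM in BALB/c and 89.0, 106, 81.7, 58.4 and 106 CPM in C57BL6/J, a wide spread in both strains. Against 0 h the change was -0.17 (95% interval -0.44 to 0.10, edgeR adjusted p = 0.455). Against 6 h Pdk2 rose by 0.50 ± 0.14 (edgeR adjusted p = 0.00285, with 8 of 10 libraries above the 6 h mean), where 29.1% of all genes were called. This call was lost without replicate 2 (0.39, edgeR adjusted p = 0.0526) and in the libraries without the name suffix (0.31).

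On water Pdk4 fell at 3 h in BALB/c and was higher at 12 h than at 0 h in C57BL6/J, although the test of the difference between the strains did not pass the threshold. In BALB/c the 5 fasted libraries, with 48.8, 12.7, 17.4, 18.4 and 51.3 CPM, spread widely, and at 3 h they had 11.7, 19.3, 15.9, 10.9 and 11.7 CPM, a change of -1.10 ± 0.31 (edgeR adjusted p = 0.00533, lower than the mean at 0 h in 5 of 5). Replicates 1 and 5 were the high ones at 0 h. The change was -0.79 without the libraries numbered 1, -0.75 without those numbered 5 and -0.84 without the 0 h replicate 1 alone, and none of these was called. In C57BL6/J the change at 3 h was -0.07 ± 0.32 with a 95% interval of -0.70 to 0.57, in a contrast that called 11.1% of all genes. Pdk4 in C57BL6/J then stood at 7.62, 8.20, 6.39, 6.86 and 8.56 CPM at 6 h and 11.0, 11.2, 10.2, 20.9 and 8.54 CPM at 12 h, against 6.27, 3.91, 4.02, 6.48 and 4.95 CPM at 0 h. All 5 libraries at 12 h lay above all 5 at 0 h, and the rise was 1.27 ± 0.32 (edgeR adjusted p = 0.00389, with 7.67% of all genes called). With only the libraries under 50 CPM of muscle transcripts, 5 at 12 h and 2 at 0 h, it was 1.29 and was not called (edgeR adjusted p = 0.140). In BALB/c the change at 12 h against 0 h was -0.40 ± 0.30 (edgeR adjusted p = 0.487, with 9.97% of all genes called). In C57BL6/J the mean was 12.4 ± 4.88 CPM at 12 h, against 5.12 ± 1.21 CPM at 0 h (SD, n = 5 each). Summed muscle markers in these C57BL6/J groups had a median of 2.85 CPM at 12 h and 284 CPM at 0 h.

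Averaged over both strains, the change in Pdk4 was -0.58 ± 0.22 at 3 h (edgeR adjusted p = 0.0398, with 7 of 10 libraries below the 0 h mean), a call that was lost in 7 of 16 alternatives, among them the fit without BALB/c water 0 h replicate 1 (-0.46). It was 0.02 at 6 h (95% interval -0.41 to 0.44) and 0.44 at 12 h (0.01 to 0.87, edgeR adjusted p = 0.170). The test of the difference between the strains gave -1.03 ± 0.44 at 3 h (edgeR adjusted p = 0.388), -1.09 ± 0.44 at 6 h (edgeR adjusted p = 0.400) and -1.67 ± 0.44 at 12 h (edgeR adjusted p = 0.0704). None passed the threshold, in tests that called 0.338%, 0.302% and 0.278% of all genes, and the 12 h value was called with DESeq2 (-1.67, adjusted p = 0.0286) and, in edgeR, without the 4 libraries that resembled another time (-1.81, adjusted p = 0.0232) and without replicate 4 (-1.70, adjusted p = 0.0468). Over the 12 interaction contrasts, 3 of time and 9 of drink (where 0% to 0.0237% of all genes were called for drink), edgeR called 0 of 72 member values and 6 had an unadjusted p under 0.05, 4 of them Pdk4.

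Of the other members on water, Pdp1 in BALB/c at 3 h was the only one called. It had 4.22, 4.60, 3.57, 2.95 and 5.17 CPM at 3 h, against 2.83, 3.19, 2.44, 1.43 and 2.72 CPM at 0 h, a change of 0.70 ± 0.25 (edgeR adjusted p = 0.0386) that lost its call when any single replicate number was left out (0.63 to 0.76). In C57BL6/J its change at 3 h was 0.03 (95% interval -0.49 to 0.55). Pdp2 had 11.1, 13.3, 8.86, 7.51 and 7.53 CPM in BALB/c and 9.49, 10.5, 9.83, 10.0 and 10.8 CPM in C57BL6/J at 6 h, against 7.68, 8.37, 10.1, 10.3 and 28.1 CPM in BALB/c and 37.0, 12.6, 9.25, 8.70 and 22.8 CPM in C57BL6/J at 0 h. The high values were all at 0 h, and the change averaged over the strains was -0.63 ± 0.26 (edgeR adjusted p = 0.0642, lower in 9 of 10), just short of the threshold. With the replicate number as a block it was -0.65 (edgeR adjusted p = 0.0490). Pdk1 was lower at 6 h than the mean at 0 h in 10 of 10 libraries (-0.38 ± 0.19, edgeR adjusted p = 0.122), a difference that was called only without BALB/c water 0 h replicate 1 (-0.49, edgeR adjusted p = 0.0397). Pdk3 differed from 0 h by 0.12 at 3 h and -0.46 at 12 h, with intervals of -0.65 to 0.89 and -1.25 to 0.33.

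Between 3 and 6 h on water no member was called, where 8.08% of all genes were called as the mean of the strains, 1.65% in BALB/c and 2.41% in C57BL6/J. Pdk4 came closest, with 10 of 10 libraries at 6 h above the 3 h mean of their strain (0.60 ± 0.22, edgeR adjusted p = 0.0746). It was called when only the groups of the contrast were fitted (0.59, edgeR adjusted p = 0.00629) and without the 4 libraries that resembled another time (0.60, edgeR adjusted p = 0.0432). Between 6 and 12 h in a single strain, where 14.2% of genes were called in BALB/c and 16.1% in C57BL6/J, Pdk2 in C57BL6/J was the 1 member called (0.53 ± 0.19, edgeR adjusted p = 0.0474), and that call was lost in 9 of 17 alternatives. In BALB/c Pdk2 was called without the 4 libraries that resembled another time (0.62, edgeR adjusted p = 0.0119).

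As the mean of both strains, Pdk4 was higher at 12 h than at 3 h with every drink. In BALB/c with sucrose, however, its median was 18.1 CPM at 3 h and 14.6 CPM at 12 h. The contrast of 12 h with 3 h was not tested within a strain. The log2 fold change of 12 h over 3 h, as the mean of both strains, was 1.58 ± 0.23 with fructose (edgeR adjusted p = 1.3e-08, with 9 of 9 libraries above the 3 h mean) and 1.30 ± 0.23 with glucose (edgeR adjusted p = 1.7e-06, 9 of 9). It was 0.69 ± 0.22 in the sucrose groups (edgeR adjusted p = 0.0109, 7 of 10) and 1.02 ± 0.22 with water (edgeR adjusted p = 9.99e-05, 10 of 10). The shares of all genes called were 26.1%, 27.7%, 26.1% and 29.8% in the same order. The sucrose call was lost without replicate 4 (0.53) and in the libraries without the name suffix (0.82, edgeR adjusted p = 0.0537). Pdk2 was the only other member called, and only with water (0.45 ± 0.14, edgeR adjusted p = 0.00730). It was 0.25 to 0.29 with the sugars, of which fructose was called without the 4 libraries that resembled another time (0.39, edgeR adjusted p = 0.0147), and whether the drinks differ in this rise was not tested.

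The 12 h values of Pdk4 overlapped across the drinks. In BALB/c at 12 h it had 28.6, 21.1, 29.7 and 14.9 CPM with fructose, 17.1, 27.8, 37.2 and 15.1 CPM with glucose, 9.80, 11.7, 15.7, 14.6 and 17.8 CPM with sucrose and 36.5, 16.4, 15.9, 25.7 and 18.3 CPM with water. In C57BL6/J it had 17.9, 15.8, 17.2, 12.4 and 35.6 CPM with fructose, 21.5, 14.8, 17.5, 11.3 and 19.0 CPM with glucose, 17.9, 13.7, 17.5, 26.3 and 12.5 CPM with sucrose and 11.0, 11.2, 10.2, 20.9 and 8.54 CPM with water. In each strain the ranges of all 4 drinks overlapped, sucrose was lowest on average in BALB/c and water was lowest in C57BL6/J. At 3 h the C57BL6/J values were 4.33, 4.71, 4.04, 5.30 and 4.11 CPM with fructose, 2.59, 5.96, 8.69, 6.90 and 4.28 CPM with glucose and 6.89, 4.16, 7.29, 6.02 and 6.06 CPM with sucrose. All 15 of these values lay below every 12 h value of the same drink in that strain.

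**Figure D4:**
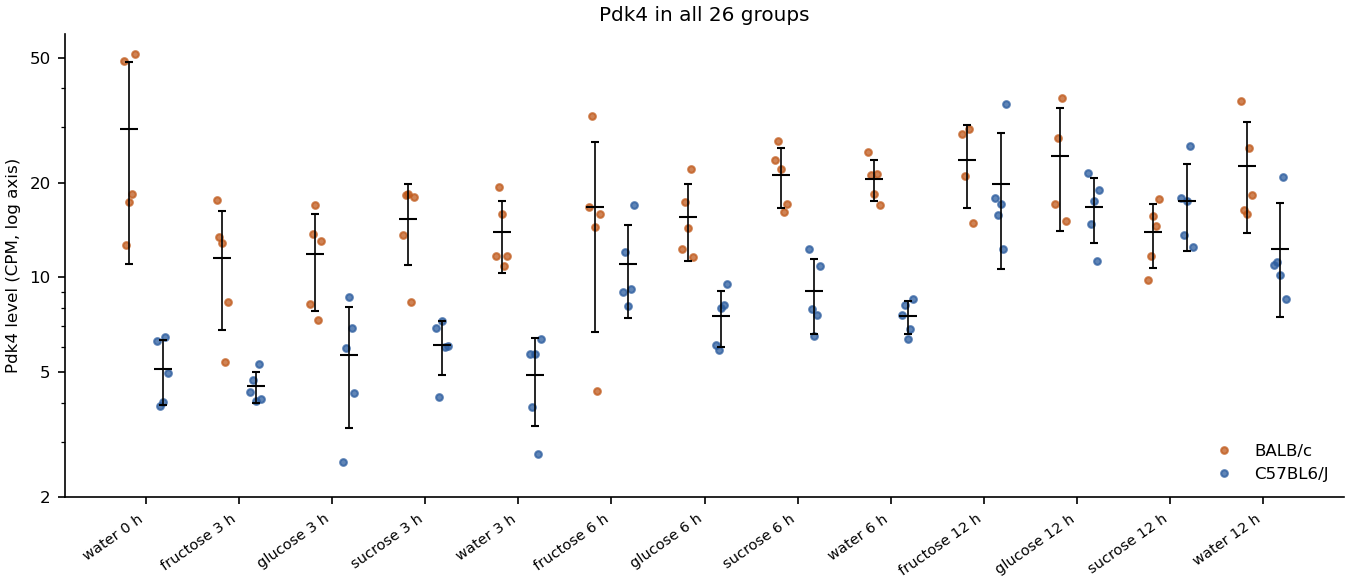
Pdk4 level in CPM on a log axis (y axis) in the 26 groups of strain, drink and time (x axis), each point a library and bars the mean ± SD. BALB/c water at 0 h has the highest mean, 29.7 CPM, and C57BL6/J fructose at 3 h the lowest, 4.50 CPM.

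Whether a sugar drink changed these genes beyond chow with water was asked at 3, 6 and 12 h, and no member was called. As the mean of both strains, 0 of 54 values (6 genes, 3 sugars, 3 times) were called by edgeR, 0 had an unadjusted p under 0.05, and DESeq2 also called 0. The shares of all genes called were 6.71% with fructose, 0.19% with glucose and 2.92% with sucrose at 3 h. They were 1.23%, 0.906% and 1.14% at 6 h and 0.00592%, 0.0651% and 0.00592% at 12 h, in the same order. The log2 fold changes ran from -0.61 to 0.56, both extremes in the scarce Pdk3. Over the 9 contrasts the 95% intervals stayed within -0.51 and 0.41 for Pdk2, within -0.48 and 0.66 for Pdk1 and within -0.64 and 0.81 for Pdk4. For the phosphatases they stayed within -0.64 and 0.56 for Pdp1 and within -0.93 and 0.78 for Pdp2, so that larger changes than these lay outside the intervals and smaller ones were not detectable. Within one strain at a time edgeR called 0 of 54 in BALB/c and 0 of 54 in C57BL6/J, with 1 unadjusted p under 0.05 in each, and DESeq2 also called none. With fructose, glucose and sucrose in that order, 0.13%, 0% and 0.0651% of all genes were called in BALB/c at 3 h, 0.266%, 0% and 0.308% at 6 h and 0%, 0% and 0% at 12 h. In C57BL6/J these shares were 4%, 0.409% and 1.81% at 3 h, 0.219%, 0.592% and 0.118% at 6 h and 0%, 0.19% and 0% at 12 h. The smallest unadjusted p in each strain was for Pdk4 at 12 h, with sucrose in BALB/c (-0.70, edgeR adjusted p = 1) and with fructose in C57BL6/J (0.68, edgeR adjusted p = 0.9999).

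**Figure D5:**
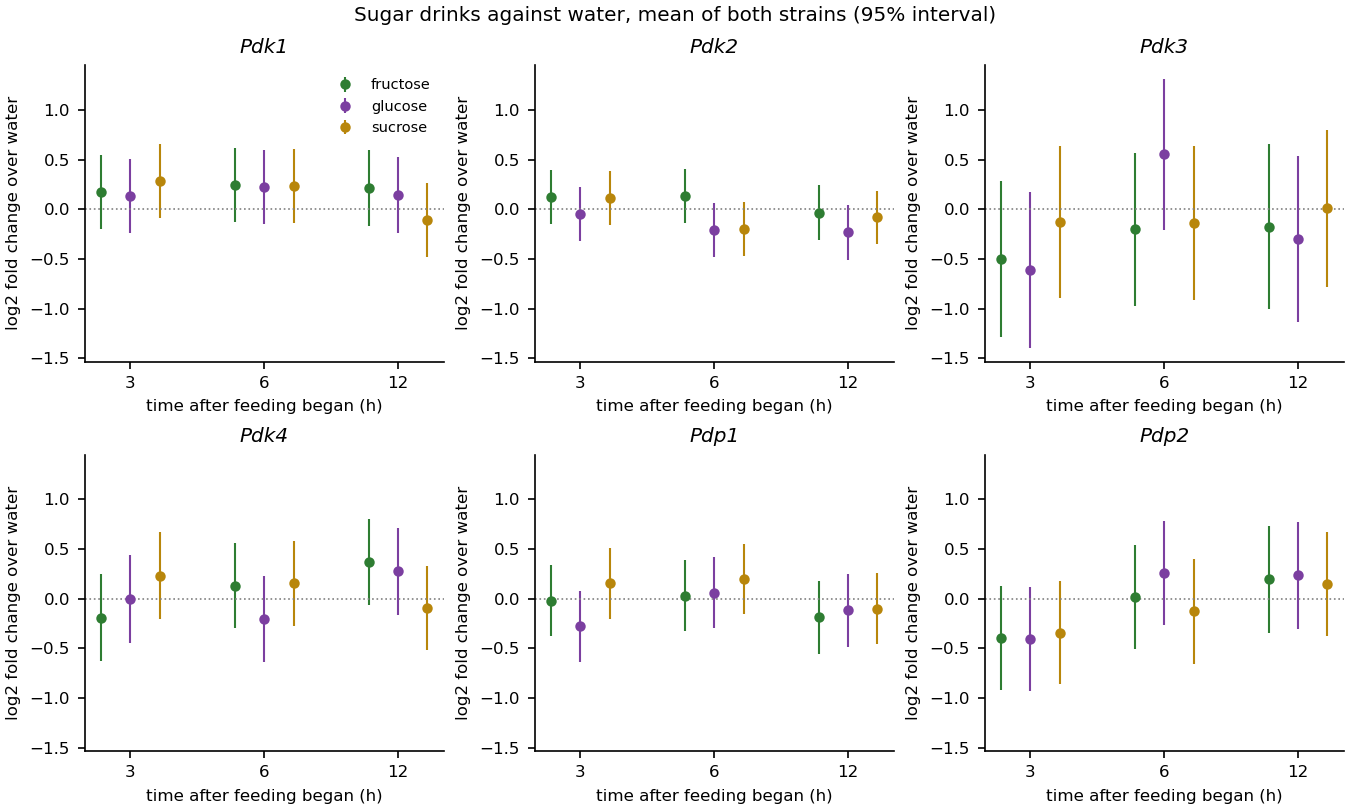
Log2 fold change of fructose, glucose or sucrose over water with its 95% interval (y axis) for each of the 6 genes at 3, 6 and 12 h after feeding (x axis), as the mean of both strains. All 54 intervals include 0, and those of Pdk3 are the widest.

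Fructose and glucose are monosaccharides and sucrose joins one of each, and the 3 sugars were compared in pairs at the same time and strength of drink. Here edgeR called 0 of 54 member values and 4 had an unadjusted p under 0.05, DESeq2 called none, and at most 2.35% of all genes were called in a pair. Those 4 were Pdk2 with fructose over glucose at 6 h (0.34, 95% interval 0.07 to 0.62) and fructose over sucrose at 6 h (0.33, 0.06 to 0.60), Pdk4 with fructose over sucrose at 12 h (0.47, 0.03 to 0.90) and Pdp1 with sucrose over glucose at 3 h (0.43, 0.07 to 0.79). Their edgeR adjusted p values were 0.314, 1, 1 and 0.400. The BALB/c fructose group at 6 h includes replicate 4, which lies nearer to 3 h and has the highest Pdk2 of that group, 144 CPM against 45.8 to 83.7 CPM in the other libraries.

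Ordered by mean CPM over the 26 groups, Pdk1 and Pdp1 split by strain. The 13 highest groups of Pdk1 were all C57BL6/J, from 90.1 ± 25.6 CPM (SD, n = 5) on water at 0 h to 62.9 ± 4.58 CPM on water at 6 h, and the 13 lowest were all BALB/c, from 43.3 ± 12.9 CPM with fructose at 12 h to 24.6 ± 2.64 CPM on water at 3 h. The step between the strains was the only 1 of 25 neighbouring steps larger than the SD of both neighbours. The 13 highest groups of Pdp1 were all BALB/c, from 4.51 ± 0.562 CPM with sucrose at 3 h, and the lowest was C57BL6/J with glucose at 3 h at 1.45 ± 0.490 CPM, with no step beyond the spread of its neighbours. Pdk2 was highest in fasted BALB/c, at 129.8 ± 24.6 CPM, a step beyond the spread above BALB/c with fructose at 12 h at 98.1 ± 10.7 CPM, and lowest in C57BL6/J with glucose at 6 h at 50.2 ± 12.3 CPM. Pdk4 ran from 29.7 ± 18.7 CPM in fasted BALB/c to 4.50 ± 0.520 CPM in C57BL6/J with fructose at 3 h, with 1 step beyond the spread, between C57BL6/J water at 6 h and C57BL6/J sucrose at 3 h. For Pdp2, from 18.1 ± 12.0 CPM in fasted C57BL6/J to 8.75 ± 2.83 CPM in BALB/c with sucrose at 6 h, and for Pdk3, no neighbouring groups differed beyond their spread.

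The genes whose group means ran most like each member were ranked by Pearson r of log2 CPM over the 26 group means, among 8995 genes with a mean of at least 5 CPM. These values are descriptions over groups from the same libraries. For Pdk1 they were Mup17 (r = 0.97), Cyp2c44 (0.969), Mup16 (0.966) and Mup12 (0.966). With the strain means removed r was 0.553, 0.52, 0.458 and 0.456, and the Mup genes, major urinary proteins, are near-identical copies with uncertain counts. For Pdk2 they were Sirt3, a mitochondrial deacetylase (0.911), Gphn (0.909), Map1lc3b, an autophagosome protein (0.909), and Mettl7a1 (0.904), at 0.884 to 0.898 with the strain means removed. For Pdk4 they were Tymp (0.902), Spg21 (0.89), Rwdd3 (0.882) and Syne1 (0.88), at 0.797 to 0.822 with the strain means removed. For Pdp1 they were Zbtb4 (0.904), Tfe3 (0.904), Rfk (0.895) and Arhgef10 (0.891), at 0.501 to 0.579 with the strain means removed. For Pdp2 they were Gpr155 (0.831), Erap1 (0.769), Ppara, the fasting-activated nuclear receptor (0.767), and Nr3c1, the glucocorticoid receptor (0.75), at 0.691 to 0.786 with the strain means removed. Leaving out a replicate number gave 0.555 to 0.812 for Ppara and 0.636 to 0.824 for Nr3c1. For Pdk3 all 4 were muscle genes, Myh2 (0.713), Myh1 (0.712), Tnni2 (0.705) and Ttn (0.703), and leaving out a replicate number gave 0.463 to 0.814, so the course of Pdk3 moves with the muscle transcripts and their part in it was not tested. Between members, Pdk1 and Pdp1 ran opposite to each other (r = -0.867), less so with the strain means removed (-0.337), and Pdk2 and Pdk4 had r = 0.586, or 0.395 with them removed.

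Of 6 tested genes of the complex, its subunits and Pdpr, none was called at 3 h on water (median log2 fold change 0.02, against -0.01 over all genes). At 6 h Pdpr, the regulatory subunit of the phosphatase, was lower (-1.31 ± 0.39, edgeR adjusted p = 0.00631), and at 12 h Pdhx, which holds dihydrolipoamide dehydrogenase in the complex, was lower (-0.27 ± 0.10, edgeR adjusted p = 0.0460), 1 of 6 each, where 28.8% of all genes were called at 6 h and 17.6% at 12 h. Between the strains none of 6 was called at 0 h. Over the 13 conditions 2 were higher in BALB/c, Pdhx (0.19 ± 0.04) and Dld (0.16 ± 0.06), and Pdha1, the subunit that the kinases phosphorylate, was lower (-0.35 ± 0.11, edgeR adjusted p = 0.00346), so that 3 of 6 were called where 55.3% of all genes were.

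Of 15 genes of pyruvate entry and other pyruvate enzymes, 1 was higher and 3 were lower at 3 h (median -0.10), 2 higher and 5 lower at 6 h, and 1 higher and 4 lower at 12 h. Of all genes, 25.4%, 28.8% and 17.6% were called at these times, so the 4 of 15 called at 3 h are near the share of all genes. At 3 h the lower ones were Pck1 of gluconeogenesis (-3.34 ± 0.49), the alanine aminotransferase Gpt2 (-0.91 ± 0.15) and Pck2 (-0.62 ± 0.16), and the higher one was Slc16a1, a monocarboxylate carrier (0.95 ± 0.16). Of 8 genes of the other 2-oxoacid dehydrogenases, 0 were higher and 2, 5 and 2 were lower at 3, 6 and 12 h, against the same shares of all genes. Ppm1k, the phosphatase of the branched-chain complex, was lower at 3 h (-1.45 ± 0.19, edgeR adjusted p = 3.98e-10). Bckdk, its kinase, was higher in BALB/c than in C57BL6/J at 0 h (0.38 ± 0.14, edgeR adjusted p = 0.0433), as 1 of 3 of these 8 genes called there, none of them lower, where 16.3% of all genes were called.

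Among 14 transcriptional regulators known from other work to act on Pdk genes, 1 was higher and 7 were lower at 3 h on water, 2 and 7 at 6 h, and 1 and 8 at 12 h (median -0.77, against -0.01 over all genes). Of all genes 12.7%, 14.9% and 9.3% were called lower at 3, 6 and 12 h, and 12.7%, 13.9% and 8.31% higher, which are the shares beside which this and the next lists stand. At 3 h Ppargc1a, the coactivator of fasting metabolism, was lower (-2.18 ± 0.26), as were Foxo1 (-1.30 ± 0.14) and Foxo3 (-1.25 ± 0.16), and Srebf1, a regulator of lipid synthesis, was higher (1.37 ± 0.19). Between the strains at 0 h, Ppargc1a (1.41 ± 0.35, edgeR adjusted p = 0.00165) and Esrra (0.67 ± 0.20, edgeR adjusted p = 0.0135) were higher in BALB/c. Srebf1 was lower there (-0.89 ± 0.27, edgeR adjusted p = 0.0111). Of the 16886 genes tested, 2753 were called in this contrast. Those named are the called regulators of smallest p, and a link to Pdk4 was not tested. Of 9 FoxO1 target genes, 8, 7 and 4 were lower at 3, 6 and 12 h on water and none higher, at medians of -1.49, -0.97 and -0.79. Of 20 PPAR-alpha targets, 3, 7 and 9 were lower and 0, 1 and 0 higher, and the 3 h count is near the share of all genes. Of 9 glucocorticoid receptor targets, 8, 4 and 6 were lower and 0, 1 and 0 higher, and of 13 HIF targets, 3, 1 and 3 were lower and 4, 3 and 0 higher. Between the strains over 13 conditions, 9 of 13 HIF targets were lower in BALB/c and 1 higher (median -0.41). Of all genes, 55.3% were called there, lower and higher together. Pdk1 was also lower, and a link to these targets was not tested. These lists were chosen with earlier results of these data known, and the counts are descriptions.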

How the data were processed

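RNA from frozen liver powder was sequenced as paired reads of 150 bases, and 128 libraries were analysed. The authors deposited read counts per gene and FPKM values (fragments scaled to gene length and library size), both for all libraries in one table each. Per the submitters' processing notes, CASAVA, STAR 2.5, HTSeq 0.6.1, DESeq2 and the mm10/GRCm38 assembly were used. Strand use in counting was not given in the sources used here. Per the labels, each library is a separate sample of its group, but separate animals are not stated for each, so p-values measure the spread between libraries.

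Tests used edgeR 4.0.16 (R 4.3.3) on the deposited counts. Genes were filtered with filterByExpr (16886 of 35275 kept, 8695 had no count), libraries were scaled by TMM, and a quasi-likelihood model of 26 group means was fitted to all 128 libraries. From it 81 contrasts were drawn, with p adjusted by Benjamini-Hochberg over all genes tested in each and a threshold of 0.05. Levels are CPM on TMM-scaled library sizes, and log2 CPM used a prior count of 1. FPKM values were used only for levels between genes and for shares. The tests were checked on simulated data. No 2 libraries of a group were the same within sampling noise. The study's replicate numbers were tried as a block, and 17 alternatives were run, 15 planned and 2 (without the 4 libraries that resembled another time, and with muscle transcripts under 50 CPM only) chosen after seeing the data, with DESeq2 1.42.0 and limma 3.58.1 among the tools.

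The genes named are the 6 members, the 4 genes most like each member by Pearson r over the 26 group means (mean of at least 5 CPM, no clone or predicted names), and up to 3 called genes of smallest p from each list of pathway genes. The members and lists were chosen with earlier results of these data known. Results of the marker lists on water against 0 h were as follows. Of 13 muscle markers 1, 0 and 10 were lower at 3, 6 and 12 h and none higher. Of 5 adrenal markers 5 were higher at 6 h and 1 lower at 12 h. Of 4 kidney markers 1 was higher at 6 h. Of 5 pancreas markers 4, and of 5 adipocyte markers 2, were lower at 12 h. Of 6 leukocyte markers 1 was lower at 3 h and 1 at 6 h, and of 7 hepatocyte markers 2 were lower at 3 h, 1 higher at 6 h and 2 lower at 12 h.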

Additional observations from a re-analysis of the deposited data

Results flagged for a closer look

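In 10 of 156 sets of 4 or 5 libraries (6 genes in 26 groups), the highest or lowest library stood apart from the others by Dixon's test, and chance flags about 1 in 20 groups. For Pdk1 this was C57BL6/J fructose 6 h replicate 4, at 68.9 CPM against 79.7 to 80.3 CPM in the other libraries. For Pdk2 it was BALB/c water 0 h replicate 1, at 173.0 CPM against 115.5 to 126.4 CPM, and C57BL6/J sucrose 3 h replicate 2, at 45.9 CPM against 66.3 to 71.1 CPM.

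Pdk4 stood apart in 2 C57BL6/J libraries at 12 h, in water replicate 4 at 20.9 CPM against 8.54 to 11.2 CPM, and in fructose replicate 5 at 35.6 CPM against 12.4 to 17.9 CPM. The Pdk4 rise in C57BL6/J on water at 12 h was 1.11 without replicate 4 and was still called, while with only the libraries under 50 CPM of muscle transcripts it was 1.29 and was not called. Pdp1 stood apart in C57BL6/J fructose 3 h replicate 1, at 2.57 CPM against 1.52 to 1.74 CPM. Pdp2 stood apart in BALB/c water 0 h replicate 5, at 28.1 CPM against 7.68 to 10.3 CPM.

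Pdk3 stood apart in 3 libraries, at levels near the limit of the counts. BALB/c water 6 h replicate 1 had 1.74 CPM against 0.176 to 0.488 CPM, with 415 CPM of muscle markers and 926 CPM of kidney markers in the same library. C57BL6/J water 6 h replicate 2 had 1.26 CPM against 0.0852 to 0.397 CPM, with 367 CPM of muscle markers. BALB/c water 12 h replicate 5 had 0.461 CPM against 0.295 to 0.340 CPM, with 1.31 CPM of muscle markers. The part of muscle or kidney transcripts in these values was not tested.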

How the results depend on the processing

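Of 486 member results, 50 were called. None changed direction while called under any of the 17 alternatives, and 49 results, called or not, crossed the threshold under at least 1. The strain differences averaged over 13 conditions were called under every alternative that gave a value, at -1.29 to -1.20 for Pdk1, 0.94 to 1.11 for Pdk4, 0.79 to 0.85 for Pdp1 and 0.24 to 0.37 for Pdk2. At 0 h Pdk1 (-2.46 to -1.24) and Pdk4 (2.17 to 2.76) were called under all 17.

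Pdk4 at 3 h on water against 0 h was no longer called with only the groups of the contrast (-0.59), with no low-count filter (-0.59), in libraries without the name suffix (-0.47) or without BALB/c water 0 h replicate 1 (-0.46), and was -0.77 to -0.41 when a replicate number was left out. Pdk1 at 6 h was called without BALB/c water 0 h replicate 1 (-0.49), and was -0.46 to -0.27 with a replicate left out. Pdk2 at 6 h was not called in libraries with muscle transcripts under 50 CPM (-0.73), of which each strain had 1 at 6 h on water and 2 at 0 h, so that each lone library is assumed to vary like the other groups, and was -0.77 to -0.49 with a replicate left out. Pdp2 at 6 h was called with the replicate block (-0.65), without C57BL6/J water 0 h replicate 2 (-0.68), without BALB/c water 0 h replicate 1 (-0.69) and without the 4 libraries that resembled another time (-0.70), and was -0.83 to -0.31 with a replicate left out. At 12 h, leaving out a replicate gave 0.26 to 0.67 for Pdk4, called at 0.67, and -1.07 to -0.19 for Pdp2, called at -1.07. The strain difference of Pdk2 at 0 h was no longer called with only the groups of the contrast (0.67), without the name suffix (0.56), without C57BL6/J water 0 h replicate 2 (0.55) or under 50 CPM of muscle transcripts (0.79, 2 libraries in each strain), and was 0.57 to 0.74 with a replicate left out. That of Pdp1 at 0 h was called with the name suffix as a covariate (0.65) and was 0.49 to 0.88 with a replicate left out. The number of strain interactions called, 0, became 1 with DESeq2, 1 without the 4 libraries that resembled another time and 1 without replicate 4, each Pdk4 at 12 h. Other than where fewer libraries were tested, the cause was not tested.

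Same-numbered libraries of different groups had a median correlation of deviations of 0.083, over 0.1 in 45.3% of 1576 pairs, against -0.022 and 19.4% for libraries with different numbers. The numbers were not taken to pair samples, under a rule that every pair be over 0.1 (lowest -0.427). Such a rule can fail even where libraries of 1 number share an effect, so it does not decide that question. With the number as a block, 1 call of 486 changed, that of Pdp2 above. The count of all genes called moved by over 1.5 times in several contrasts. In C57BL6/J at 3 h it was 1868, against 0 with only the groups of the contrast and 3247 without the 4 libraries that resembled another time. In the strain interactions at 3, 6 and 12 h it was 57 (0 to 135), 51 (0 to 99) and 47 (0 to 141). At 6 h on water it was 4864 (480 to 5522), at 12 h 2974 (1417 to 3387), between the strains at 0 h 2753 (817 to 3105), and with fructose, glucose and sucrose against water at 3 h 1133 (399 to 1355), 32 (1 to 65) and 493 (107 to 643). Depth limits Pdk3 most, with 0 to 85 reads a library.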

Other observations

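In libraries that resembled another time after feeding, some members were at the edge of their group. In groups this small an edge position is common by chance, and its frequency was not tested. C57BL6/J water 0 h replicate 2 had the lowest Pdk2 (47.6 CPM) and Pdk4 (3.91 CPM) of its group and was not at the edge for the other members. BALB/c fructose replicate 4 had the highest Pdk2, the lowest Pdk4 and the lowest Pdk1 of its group at 3 h (126.0, 5.399 and 18.1 CPM) and at 6 h (144, 4.34 and 16.8 CPM). Replicate 4 also had the highest Pdp2 at 3 h (18.1 CPM) and at 6 h (11.5 CPM). At 3 h it further had the lowest Pdp1 (2.31 CPM) and the highest Pdk3 (0.496 CPM). BALB/c water 12 h replicate 1 had the lowest Pdk1 (20.7 CPM), Pdk2 (56.1 CPM) and Pdp2 (2.92 CPM) and the highest Pdk4 (36.5 CPM) and Pdp1 (3.21 CPM) of its group. BALB/c water 0 h replicate 1, which was most like its own time, also combined a high Pdk4 (48.8 CPM) with the lowest Pdk1 (10.6 CPM) of its group, but with its highest Pdk2 (173.0 CPM). That library also had the lowest Pdp2 (7.68 CPM) and the highest Pdk3 (0.566 CPM) of its group.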
